A study of Mus musculus with 6 samples.

Results

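The families described here build the machinery that fills, docks and fuses secretory vesicles: the synaptotagmins, synapsins, Sv2 proteins, complexins, Unc13 and Rims proteins, syntaxins, Snap and Vamp proteins, the syntaxin-binding Stxbp proteins and the Rab3 family. They were chosen by symbol: every non-control probe of the arrays whose gene name begins with 1 of these stems was taken. That gave 175 probes for 87 genes, of 41174 probes for 27597 genes on the array. The stem Rab3 also takes 12 Rab genes that are no Rab3 (Rab30 to Rab39b), which are kept apart below. So are 4 genes named after Rab3 (Rab3gap1, Rab3gap2, Rab3il1 and Rab3ip), grouped as Rab3 regulators by name only. Snap91 is taken by its name alone, since it encodes the clathrin adaptor AP180 and no SNARE. Vamp7 and Snap47 stand under other names on the array and are not members. Vamp7 was 1.70-fold higher in ThyroidEC (adjusted p = 0.00284), and Snap47 was not called (adjusted p = 0.438).

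ThymusEC are live epithelial cells of the thymic medulla, sorted as Epcam+ UEA1+ CD45- from pools of 6, 6 and 2 thymi, with 3 replicates. ThyroidEC are live Epcam+ CD45- epithelial cells of pools of 20 thyroids each, also with 3 replicates. All cells came from C57BL/6 mice, with no treatment or allele named and no age given in the sources used here. Epcam is a surface protein of epithelia, UEA1 a lectin that binds medullary thymic epithelium, CD45 the common surface protein of white blood cells, and Fluorogold staining was used to leave out dead cells. The comparison asks how RNA levels differ between the epithelium of both organs. Each replicate is a pool, so that the spread below is between pools.

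At a neuronal synapse, a Vamp protein on the vesicle and a syntaxin with a Snap protein on the target membrane zip into a SNARE complex that pulls the membranes together. Some synaptotagmins, though not all, sense calcium and trigger fusion, complexins clamp the complex, and Unc13 proteins prime it. Several Stxbp proteins hold the syntaxin, and Rab3 with Rims tethers the vesicle to the release site. Endocrine cells such as the calcitonin-making C cells of the thyroid use the same parts for hormone granules, and every cell uses the ubiquitous paralogs for its own membrane traffic. Medullary thymic epithelium is known for making low amounts of proteins typical of other organs, under the regulator Aire and in small subsets that resemble other cell types.

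Levels are given as log2 of the array's processed signal minus that array's 75th percentile, so that 0 is the level of that percentile, and they serve to compare samples, not genes. A probe entered the test if all 3 arrays of either group, or of both, measured it well above background, and a gene stands for its tested probe with the highest mean. Called means an adjusted p under 0.05 in limma's two-sided test over 21395 genes, with Benjamini-Hochberg adjustment. Where a gene was above background on no array of a group, its fold is a bound, written "at least", set against the lowest signal well above background. Such a bound keeps the measured value where that was the higher one, holds for this background handling and is no strict minimum. Of the 87 genes, 81 were tested, and Syt2, Sv2c, Cplx4, Rims4, Rab3c and Rab39 were not above background on all arrays of either group.

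Defining markers were set against the labels. Aire, the regulator of ectopic expression in medullary epithelium, differed by 12.08 on the log2 scale toward ThymusEC, and Tg, the thyroid hormone precursor, by -10.78. Epcam had positive levels on all 6 arrays. Other cells were also seen: endothelial markers summed to 531 to 790 in ThyroidEC, beside 597 to 781 for follicular cell markers, in units given with the marker lists below. Ptprc, the gene of CD45, was 16.6-fold higher in ThymusEC, although both sorts were CD45-. Arrays of a group correlated at 0.994 to 0.995 in ThymusEC and at 0.987 to 0.990 in ThyroidEC, and arrays of different groups at 0.747 to 0.779. Between 78.4% and 81.0% of probes were above background on the ThymusEC arrays and between 65.4% and 72.8% on the ThyroidEC arrays. In such bulk samples, fewer cells of a type and less RNA per cell cannot be told apart.

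Of the 81 tested genes, 35 were higher in ThymusEC (43.2%, against 39.3% of all genes tested) and 25 were higher in ThyroidEC (30.9%, against 30.5%). The remaining 21 were not called. The called share of 74.1% was near the 69.8% of all genes. The groups did not overlap in 66 of the 81 genes, or 81.5%, against 76.5% of all genes. Differences of 2-fold or more were called in 31 genes toward ThymusEC (38.3%, against 28.4%) and in 15 toward ThyroidEC (18.5%, against 14.7%). At 8-fold or more, 13 genes were higher in ThymusEC (16.0%, against 13.7%) and 3 were higher in ThyroidEC (3.70%, against 3.08%). The median difference was 0.26 over the 81 genes and 0.10 over all genes. These shares lie near those of the whole array at this scaling, and what follows concerns which paralogs fell on which side.

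**Figure D1:**
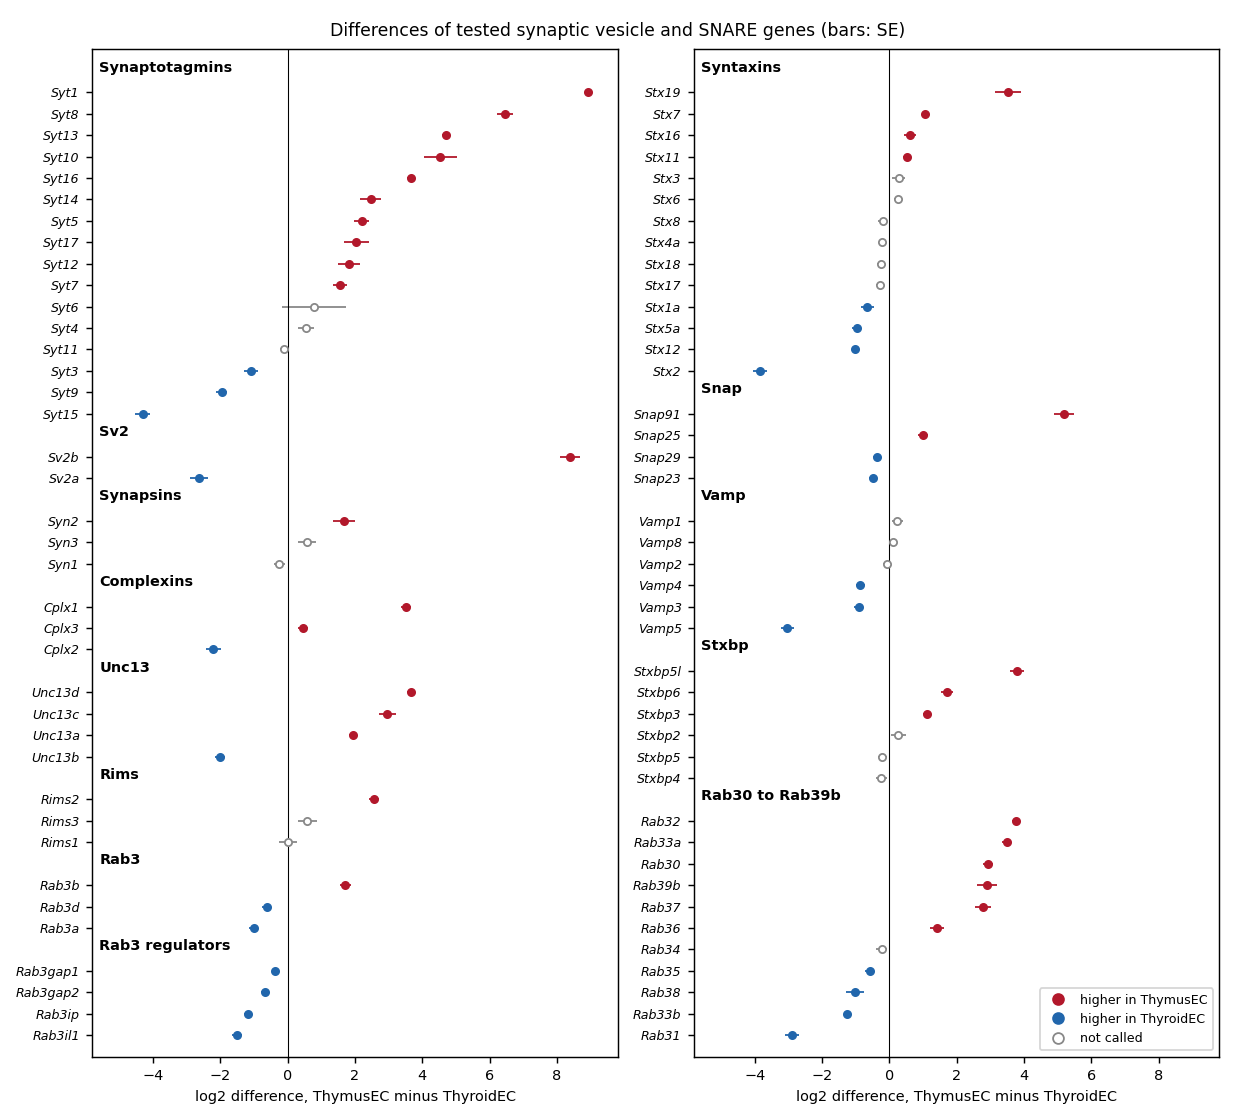
The log2 difference (ThymusEC minus ThyroidEC, horizontal axis) of 79 of the tested genes, grouped by family, with bars for the SE (3 arrays per group). Filled red points were called higher in ThymusEC, filled blue points higher in ThyroidEC and open points were not called. Among the genes above background on all 6 arrays, Syt1 lies farthest to the right, at 8.93, and Stx2 farthest to the left, at -3.85. Genes above background on no array of a group, such as Sv2b and Syt15, are drawn at their measured difference, which has no firm size.

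Detection also differed between the groups. On all arrays of ThymusEC but not of ThyroidEC, 15 of the 87 genes were above background (17.2%, against 14.4% of all genes on the array), and only Syt15 and Sv2a showed the reverse (2.30%, against 1.30%). Genes that are dim in a single group enter the test through the group in which they are bright. Among the 64 genes above background on all 6 arrays, 22 were higher in ThymusEC (34.4%, against 29.5% of all such genes) and 23 in ThyroidEC (35.9%, against 37.5%). Centring each array on its median in place of its 75th percentile lowers the median difference over all genes by 0.54, to -0.43. The members then count 32 toward ThymusEC and 37 toward ThyroidEC, beside 6105 and 11043 of all genes. ThymusEC took 58.3% of the members' calls in the main setting (56.3% over all genes), 46.4% with median centring (35.6% over all genes) and 48.9% over genes seen on all arrays (44.0% of all such genes).

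Promoters are shown for Syt1 and Sv2b, both far higher in ThymusEC, and for Unc13a and Syn1, the members whose windows hold TTCAGCACC, part of a neuronal repressor motif. RefSeq's table (GRCm38.p6) gave windows of 250 bases before to 50 bases after a start for 67 of the 87 genes, and where a gene has several starts its first is printed. All 4 lie on the minus strand and read 5′ to 3′ in the gene's direction. Capitals mark GGGCGG (the GC box) and TATAAA (the TATA box) in the windows of Syt1 and Sv2b. In those of Unc13a and Syn1 they mark TTCAGCACC and GGACAGCG, the left and right blocks of the RE1 element known to bind the repressor REST. Each motif was searched on both strands, so that a capital run may read as its reverse complement, and no motif contains another.
Syt1, chr10:109010926-109011225: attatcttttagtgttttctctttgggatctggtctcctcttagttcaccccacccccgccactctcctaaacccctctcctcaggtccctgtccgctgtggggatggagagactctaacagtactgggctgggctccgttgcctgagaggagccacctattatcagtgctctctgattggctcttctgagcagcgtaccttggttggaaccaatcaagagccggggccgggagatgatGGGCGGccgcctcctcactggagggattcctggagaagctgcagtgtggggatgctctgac
Sv2b, chr7:75309213-75309512: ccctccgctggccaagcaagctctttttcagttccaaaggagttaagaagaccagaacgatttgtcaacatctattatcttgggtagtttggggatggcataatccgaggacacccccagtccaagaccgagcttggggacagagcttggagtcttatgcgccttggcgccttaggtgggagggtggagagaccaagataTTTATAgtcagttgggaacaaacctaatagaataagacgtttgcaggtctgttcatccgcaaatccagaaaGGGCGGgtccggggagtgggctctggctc
Unc13a, chr8:71671708-71672007: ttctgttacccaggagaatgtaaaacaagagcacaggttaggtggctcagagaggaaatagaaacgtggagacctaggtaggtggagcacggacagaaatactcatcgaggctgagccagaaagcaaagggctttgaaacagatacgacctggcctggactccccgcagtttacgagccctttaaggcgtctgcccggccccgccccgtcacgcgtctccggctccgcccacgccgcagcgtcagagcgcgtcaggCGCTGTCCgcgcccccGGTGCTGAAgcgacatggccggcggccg
Syn1, chrX:20920869-20921168: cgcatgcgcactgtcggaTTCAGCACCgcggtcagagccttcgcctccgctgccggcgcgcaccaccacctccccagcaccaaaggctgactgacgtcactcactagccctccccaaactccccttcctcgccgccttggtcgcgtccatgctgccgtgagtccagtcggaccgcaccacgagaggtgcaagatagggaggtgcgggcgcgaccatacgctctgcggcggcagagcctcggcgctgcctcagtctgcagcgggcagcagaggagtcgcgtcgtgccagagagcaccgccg

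Over the 67 genes with a window, 52 held GGGCGG (77.6%, against 38.2% of 27025 genes with a window). TATAAA stood in 5 of them (7.46%, against 15.7%): Rab39b, Rab3b, Stx2, Stx3 and Sv2b. TTCAGCACC was found in Syn1 and Unc13a (2.99%, against 0.433%), and GGACAGCG in Stx5a, Syt6 and Unc13a (4.48%, against 1.48%). Unc13a thus held both blocks. These genes fell on both sides: Unc13a was higher in ThymusEC, Stx5a in ThyroidEC, and Syt6 and the Syn1 probe that stands for its gene were not called. A match is a description of the letters in the window.

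The synaptotagmins spread widely. Of 16 tested synaptotagmins, 10 were higher in ThymusEC (62.5%, against 39.3% of all genes tested) and 3 in ThyroidEC (18.75%, against 30.5%). The other 3 were not called, and differences lay between -4.31 and 8.93 with a median of 1.93. Syt1, the fast calcium sensor of neurons and chromaffin cells, had levels of 4.56, 4.46 and 4.52 in ThymusEC, against -4.48, -4.38 and -4.40 in ThyroidEC (accession NM_009306, probe at chr10:107902371-107902430 of mm8). All ThymusEC arrays lay far above all ThyroidEC arrays, a difference of 8.93 (SE 0.10) or 489-fold (adjusted p = 1.68e-07). Each of its 5 probes was called the same way, with differences between 6.73 and 9.17. Syt7, a slower high-affinity sensor that also serves lysosomes, had levels of -3.20, -3.45 and -3.25 in ThymusEC, against -4.61, -4.67 and -5.29 in ThyroidEC. Its groups did not overlap and differed by 2.94-fold (adjusted p = 0.000456). Syt7 stayed called at only 1.43-fold with normexp background correction and 1.57-fold with quantile normalization.

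On the other side stood Syt15. Its levels were -7.13, -6.82 and -6.53 in ThymusEC, above background on no array, against -2.15, -2.54 and -2.87 in ThyroidEC, a fold of at least 12.5 toward ThyroidEC (adjusted p = 6.57e-06). Both of its probes were called, at -4.31 and -6.43. With normexp background correction Syt15 was 3.00-fold higher in ThyroidEC, under that bound. Syt9 (3.88-fold) and Syt3 (2.14-fold) were also higher in ThyroidEC. The other synaptotagmins are picked out here after their values were seen. Syt8 (at least 23.3-fold), Syt13 (26.0-fold) and Syt16 (12.7-fold) were higher in ThymusEC. Syt10 was 23.2-fold higher in ThymusEC and above background on only 1 ThyroidEC array, and Syt12 was 3.54-fold higher. Syt14, Syt5 and Syt17 were higher by at least 2.04-fold, 1.97-fold and 3.50-fold, but with normexp background correction none of these 3 kept its call (adjusted p = 0.263, 0.262 and 0.147). Syt13 had a second probe that was not called, at a difference of 0.27. Syt4, Syt6 and Syt11 were not called, at 0.54, 0.78 and -0.10.

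The vesicle membrane proteins of the Sv2 family went opposite ways. Sv2b had levels of 0.27, 0.23 and 0.11 in ThymusEC, against -8.40, -7.47 and -8.68 in ThyroidEC, where no array was above background. The fold toward ThymusEC was at least 72.8 (measured difference 8.39, SE 0.30, adjusted p = 1.43e-06), and all 3 Sv2b probes were called. Sv2a, the most widespread paralog in neurons and endocrine cells, had levels of -7.39, -6.47 and -6.74 in ThymusEC, above background on no array. In ThyroidEC its levels were -4.35, -4.40 and -3.94, a fold of at least 3.83 toward ThyroidEC (adjusted p = 0.000112). With normexp background correction Sv2a was 1.59-fold higher in ThyroidEC and Sv2b 13.1-fold higher in ThymusEC, both under these bounds. Neither gene overlapped between the groups.

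Synapsins coat synaptic vesicles and tie them to the cytoskeleton. Syn2 had levels of 1.09, 0.93 and 0.99 in ThymusEC, against -0.98, 0.11 and -1.15 in ThyroidEC, and was 3.19-fold higher in ThymusEC without overlap (adjusted p = 0.00324). ThyroidEC replicate 2 lay above the other two of its group. Syn1 had levels of 4.02, 3.95 and 3.69 in ThymusEC, against 3.90, 4.39 and 4.11 in ThyroidEC, with overlapping groups (difference -0.25, adjusted p = 0.222). Syn3 was not called, at 0.58.

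**Figure D2:**
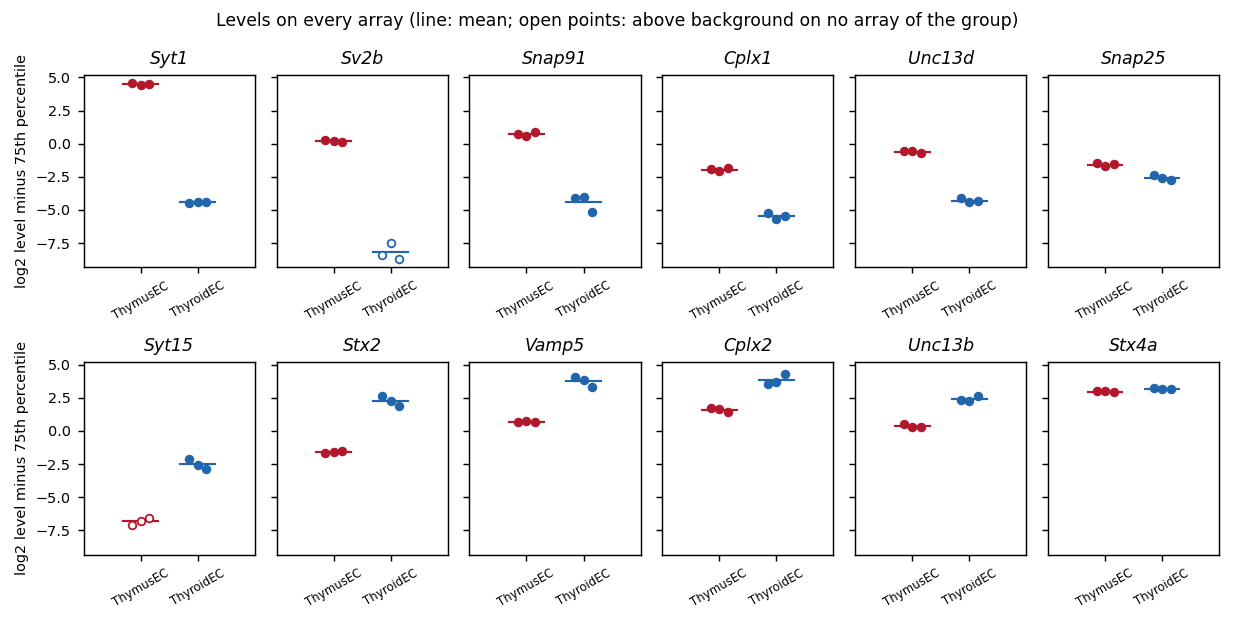
Levels (log2 signal minus the array's 75th percentile, vertical axis) of 12 genes on every array, with ThymusEC to the left of ThyroidEC in each panel and a line at the mean of 3 arrays. Open points mark groups in which no array was above background. The groups do not overlap in any panel, Syt1, Sv2b, Snap91, Cplx1, Unc13d and Snap25 lie higher in ThymusEC and the remaining genes higher in ThyroidEC, of which Stx4a was not called.

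Complexins and the priming factors of the Unc13 family also divided by paralog. Cplx1, the main complexin of fast neuronal release, had levels of -1.95, -2.09 and -1.86 in ThymusEC, against -5.27, -5.72 and -5.45 in ThyroidEC, where 2 arrays were above background. It was 11.4-fold higher in ThymusEC (SE 0.15 on a log2 difference of 3.51, adjusted p = 2.51e-06). Cplx2, its close paralog in neurons and secretory cells, had levels of 1.72, 1.69 and 1.44 in ThymusEC, against 3.52, 3.68 and 4.28 in ThyroidEC. Here the ThyroidEC arrays were the higher ones, by 4.62-fold (adjusted p = 0.000111), and 3 of its 4 probes were called. Cplx3 was 1.38-fold higher in ThymusEC (adjusted p = 0.0267), a call lost without any 1 of the ThymusEC arrays (adjusted p = 0.0537, 0.0733 and 0.0872). With quantile normalization Cplx3 was called the other way, at -0.57 (adjusted p = 0.00610).

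Unc13d, the priming factor of lytic granules in lymphocytes and of platelets and mast cells, had levels of -0.58, -0.56 and -0.72 in ThymusEC, against -4.10, -4.40 and -4.36 in ThyroidEC. It was 12.7-fold higher in ThymusEC without overlap (adjusted p = 1.13e-06). Unc13a, the principal priming factor of neurons, had levels of -1.51, -1.47 and -1.38 in ThymusEC, against -3.36, -3.29 and -3.57 in ThyroidEC, and was 3.87-fold higher in ThymusEC (adjusted p = 1.11e-05). Unc13c, a paralog of the cerebellum, was higher by at least 1.93-fold, a call lost with normexp background correction (adjusted p = 0.104). Unc13b, a priming factor of some synapses and of other secretory tissues, had levels of 0.52, 0.27 and 0.33 in ThymusEC, against 2.31, 2.24 and 2.64 in ThyroidEC, the reverse of its paralogs (4.06-fold, adjusted p = 2.65e-05). All 4 Unc13b probes were called toward ThyroidEC.

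The active zone scaffolds of the Rims family and Rab3 itself were less far apart. Rims2, which serves neurons and insulin-secreting cells, had levels of -2.60, -2.48 and -2.84 in ThymusEC, against -5.26, -5.06 and -5.31 in ThyroidEC, a 5.92-fold difference with no overlap (adjusted p = 6.79e-06). Rims1 had levels of -2.41, -1.95 and -1.99 in ThymusEC, against -2.43, -1.57 and -2.41 in ThyroidEC, and its groups overlapped (adjusted p = 0.960). A second Rims1 probe was called, at a difference of 2.83, with 1 ThyroidEC array above background. Rims3 was not called, at 0.58.

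Rab3b, an endocrine and neuronal Rab3, had levels of -0.99, -1.39 and -0.92 in ThymusEC, against -2.63, -2.79 and -3.03 in ThyroidEC, and was 3.29-fold higher in ThymusEC (adjusted p = 0.000124). Rab3a, the Rab of synaptic vesicles, had levels of 0.63, 0.45 and 0.28 in ThymusEC, against 1.48, 1.58 and 1.33 in ThyroidEC, and was 2.01-fold higher in ThyroidEC (adjusted p = 0.000520). Rab3d, found on granules of exocrine and other secretory cells, had levels of 1.08, 1.03 and 1.14 in ThymusEC, against 1.50, 1.72 and 1.90 in ThyroidEC (1.54-fold, adjusted p = 0.00484). None of these 3 genes overlapped between groups, so that Rab3b went against both paralogs. All 4 genes grouped by name as Rab3 regulators were higher in ThyroidEC, against 30.5% of all genes tested. Their differences lay between -0.37 and -1.49 on the probes that stand for them. Rab3il1, an exchange factor that activates Rab3, led them with -1.60, -1.72 and -1.99 in ThymusEC, against -0.19, -0.18 and -0.46 in ThyroidEC (2.82-fold, adjusted p = 0.000120). Its other probes gave 8.05-fold and 15.3-fold, and the median over probes 8.05-fold. Rab3gap1 lost its call without ThymusEC replicate 2 (adjusted p = 0.0529) or replicate 3 (adjusted p = 0.0567).

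Among the target-membrane SNAREs, 15 syntaxins were tested. Of these, 5 were higher in ThymusEC (33.3%, against 39.3% of all genes tested), 4 in ThyroidEC (26.7%, against 30.5%) and 6 were not called. Stx2, a plasma membrane syntaxin of epithelia also known as epimorphin, had levels of -1.63, -1.60 and -1.50 in ThymusEC, against 2.65, 2.26 and 1.90 in ThyroidEC. It was 14.4-fold higher in ThyroidEC (log2 difference -3.85, SE 0.20, adjusted p = 5.41e-06) on both of its probes. Stx19, a syntaxin of surface epithelia without a membrane anchor, had levels of -2.67, -2.31 and -2.32 in ThymusEC, against -6.84, -5.67 and -5.33 in ThyroidEC, where 1 array was above background (11.4-fold, adjusted p = 0.000183). These groups lay apart in opposite directions.

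Stx1a, a syntaxin of neuronal and endocrine release sites, had levels of -2.61, -2.63 and -2.84 in ThymusEC, against -1.67, -2.35 and -2.08 in ThyroidEC, and was 1.58-fold higher in ThyroidEC (adjusted p = 0.0184) without overlap. That call ended without ThymusEC replicate 3 (adjusted p = 0.0660).

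Other syntaxins fell on both sides. Stx4a, a ubiquitous plasma membrane syntaxin, had levels of 3.01, 3.01 and 2.91 in ThymusEC, against 3.27, 3.17 and 3.14 in ThyroidEC, separate groups whose difference of -0.22 was not called (adjusted p = 0.0957). Stx3, the apical syntaxin of polarised epithelia, had levels of -1.26, -0.94 and -1.24 in ThymusEC, against -1.74, -1.06 and -1.47 in ThyroidEC, with overlap (adjusted p = 0.247). With the slide as a block its difference was 0.60 and not called (adjusted p = 0.0674). The late endosomal Stx7 (2.09-fold), Stx11 of immune cell granules (1.44-fold) and the Golgi Stx16 (1.53-fold) were higher in ThymusEC. Without ThymusEC replicate 1 the call of Stx16 ended (adjusted p = 0.0594), as it did on slide 1 alone (adjusted p = 0.138). With median centring neither Stx11 (-0.01) nor Stx16 (0.07) was called. The recycling endosome's Stx12 (2.02-fold) and the Golgi's Stx5a (1.97-fold) were higher in ThyroidEC.

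All 4 Snap genes were called, 2 in each direction (50%, against 39.3% of all genes tested toward ThymusEC and 30.5% toward ThyroidEC). Snap25, the neuronal and endocrine partner of Stx1a and Vamp2, had levels of -1.47, -1.69 and -1.57 in ThymusEC, against -2.38, -2.56 and -2.78 in ThyroidEC, a 1.99-fold difference toward ThymusEC on both tested probes (adjusted p = 0.000642). Snap23, its ubiquitous counterpart, had levels of 0.69, 0.63 and 0.61 in ThymusEC, against 1.19, 1.17 and 1.05 in ThyroidEC, and was 1.41-fold higher in ThyroidEC (adjusted p = 0.00413). Neither overlapped, but for Snap23 only 1 of 3 probes was called, and with the median over its probes the difference was -0.06 (adjusted p = 0.801). Snap29, of endosomes and autophagosomes, was 1.31-fold higher in ThyroidEC (adjusted p = 0.0246), a call lost without any 1 of the ThymusEC arrays or without ThyroidEC replicate 3, and on slide 1 alone (adjusted p = 0.140). Snap91 had levels of 0.74, 0.61 and 0.92 in ThymusEC, against -4.11, -4.05 and -5.14 in ThyroidEC, and was 36.4-fold higher in ThymusEC on both probes (adjusted p = 9.21e-06).

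By limma, 0 of 6 vesicle SNAREs of the Vamp family were called higher in ThymusEC, against 39.3% of all genes tested. At an unadjusted p under 0.05 there were also 0. In ThyroidEC 3 of the 6 were higher (50%, against 30.5%), and 3 were not called. These counts rest on the probes that stand for the genes. Vamp5, known from muscle and endothelium, had levels of 0.66, 0.78 and 0.68 in ThymusEC, against 4.06, 3.85 and 3.34 in ThyroidEC, 8.23-fold higher in ThyroidEC on both probes (adjusted p = 1.45e-05). Vamp3, of recycling endosomes, had levels of -0.49, -0.50 and -0.41 in ThymusEC, against 0.46, 0.68 and 0.21 in ThyroidEC (1.89-fold, adjusted p = 0.00108). Vamp4, of the Golgi, was 1.82-fold higher in ThyroidEC. In both Vamp5 and Vamp3 all ThyroidEC arrays lay above all ThymusEC arrays.

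Vamp2, the vesicle SNARE of neurons and endocrine cells, had levels of 1.63, 1.43 and 1.40 in ThymusEC, against 1.62, 1.45 and 1.65 in ThyroidEC, with overlap (difference -0.08, adjusted p = 0.561). Vamp8, the granule SNARE of exocrine cells, mast cells and platelets, had levels of 3.28, 3.29 and 3.24 in ThymusEC, against 3.17, 3.04 and 3.34 in ThyroidEC, also overlapping (0.09, adjusted p = 0.517). Vamp1 was not called, at 0.23. With quantile normalization Vamp8 was called toward ThymusEC, at 0.37 (adjusted p = 0.0341), and with median centring toward ThyroidEC, at -0.45 (adjusted p = 0.0122).

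Of the 7 Stxbp genes, 3 were higher in ThymusEC (42.9%, against 39.3% of all genes tested) and 4 were not called by limma. Toward ThyroidEC there were 0 (against 30.5% of all genes tested), also at an unadjusted p under 0.05, a count that holds for the main scaling only. Stxbp5l, a tomosyn that holds back SNARE assembly, had levels of -3.46, -3.29 and -3.53 in ThymusEC, against -7.51, -7.31 and -6.80 in ThyroidEC, where no array was above background (at least 5.89-fold, adjusted p = 6.07e-06). Stxbp3, a ubiquitous protein that holds Stx4a, had levels of 3.31, 3.21 and 3.25 in ThymusEC, against 2.06, 2.26 and 2.14 in ThyroidEC, and was 2.15-fold higher in ThymusEC (adjusted p = 0.000101). Both lay clear of the ThyroidEC arrays. Stxbp6, or amisyn, was 3.27-fold higher in ThymusEC.

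Stxbp2, a syntaxin-binding protein of epithelia and blood cells, had levels of -0.77, -0.51 and -1.17 in ThymusEC, against -1.38, -1.14 and -0.72 in ThyroidEC, with overlap (0.26, adjusted p = 0.346). Stxbp4 and Stxbp5 were not called, at -0.24 and -0.22. Median centring, however, called both toward ThyroidEC, Stxbp4 at -0.78 (adjusted p = 0.00402) and Stxbp5 at -0.75 (adjusted p = 0.00169). Quantile normalization also called Stxbp4 toward ThyroidEC, at -0.81 (adjusted p = 0.00315). Of 5 Stxbp5 probes, however, 3 were called toward ThyroidEC, at -1.27, -1.16 and -0.81.

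The Rab genes that share only the name stem counted 6 higher in ThymusEC, 4 higher in ThyroidEC and 1 not called, of 11 tested. These shares were 54.5% and 36.4%, against 39.3% and 30.5% of all genes tested. Rab32, of lysosome-related organelles, had levels of 2.70, 2.59 and 2.44 in ThymusEC, against -1.16, -1.31 and -1.09 in ThyroidEC (13.6-fold, adjusted p = 9.22e-07). Rab31, of the route between Golgi and endosomes, had levels of -2.35, -2.10 and -2.63 in ThymusEC, against 0.82, 0.56 and 0.22 in ThyroidEC (7.44-fold, adjusted p = 2.28e-05). Neither overlapped, and the signs were opposite. Rab33a, Rab30, Rab37, Rab36 and Rab39b were also higher in ThymusEC, by differences between 1.41 and 3.48, of which Rab39b lost its call with normexp background correction (adjusted p = 0.142). Rab38, a close relative of Rab32, was 2.03-fold higher in ThyroidEC (adjusted p = 0.0135), a call lost without ThymusEC replicate 3 (adjusted p = 0.0504) and on slide 1 alone (adjusted p = 0.165).

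**Figure D3:**
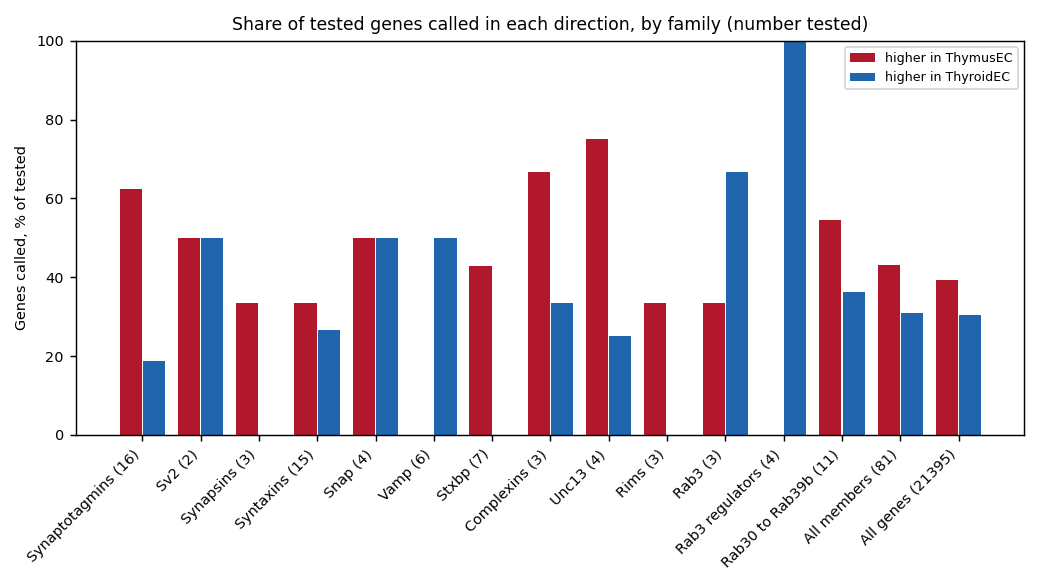
Percentage of tested genes called higher in ThymusEC (red) and higher in ThyroidEC (blue) in each family, with the number tested in brackets, and the same for all 81 members and all 21395 genes. Unc13 and the synaptotagmins have the tallest red bars next to the complexins, while the Vamp genes and the Rab3 regulators have no red bar. With 2 to 16 genes a family, a bar turns on a few genes.

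Where a gene had several probes, they could be set against each other. Among the 46 members with more than 1 tested probe, every probe was called the same way in 27, some were called and others not in 16, and none was called in 3. In 0 of the 46 were probes called in opposite directions by limma, also 0 at an unadjusted p under 0.05, as they were in 368 of 7417 genes over the whole array. In some members the probe that stands for the gene was not called while another was. The other call was toward ThymusEC in Syn1, Vamp2, Rims1, Syt4, Stx6 and Stxbp4. It was toward ThyroidEC in Stxbp5, Syt11, Syn3, Stx3, Stx8 and Stx17. Uncalled values given above for these genes belong to the probes that stand for them.

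The probes behind the values of Syn1 and Vamp2 are shown because they decide how these synaptic genes read. The Syn1 probe that stands for the gene is the most GC-rich of all member probes, at 81.7% G and C, against a median of 41.7%, and capitals mark a run of G and C at its start. The 2 other Vamp2 probes overlap by 50 bases, marked in capitals, so that they are hardly independent measurements, and in the genome they span an intron. Positions are those of the array files (mm8), and the sequences are those of the array files.
Syn1, chrX:20077596-20077655: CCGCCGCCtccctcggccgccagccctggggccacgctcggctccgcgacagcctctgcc
Vamp2, chr11:68906175-68906856: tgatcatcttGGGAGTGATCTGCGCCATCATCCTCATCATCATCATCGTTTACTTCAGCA
Vamp2, chr11:68906185-68906866: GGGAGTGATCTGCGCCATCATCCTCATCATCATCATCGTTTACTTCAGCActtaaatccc

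The overlapping Vamp2 probes were both called toward ThymusEC, at 1.02 and 0.90, and their arrays did not overlap between groups. The GC-rich Syn1 probe gave -0.25. The other tested Syn1 probe had levels of -3.98, -4.35 and -4.08 in ThymusEC, against -5.53, -5.91 and -5.77 in ThyroidEC, where 2 arrays were above background. It was called at 1.60 toward ThymusEC (adjusted p = 9.70e-05). With the median over a gene's probes, Syn1 stood at 0.68 (adjusted p = 0.00144), Vamp2 at 0.90 (adjusted p = 0.000366) and Rims1 at 1.42, all called toward ThymusEC. With median centring, the probes that stand for Syn1 (-0.78, adjusted p = 0.00314) and Vamp2 (-0.62, adjusted p = 0.00308) were called toward ThyroidEC. Which probe reads the transcript more truly was not tested.

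**Figure D4:**
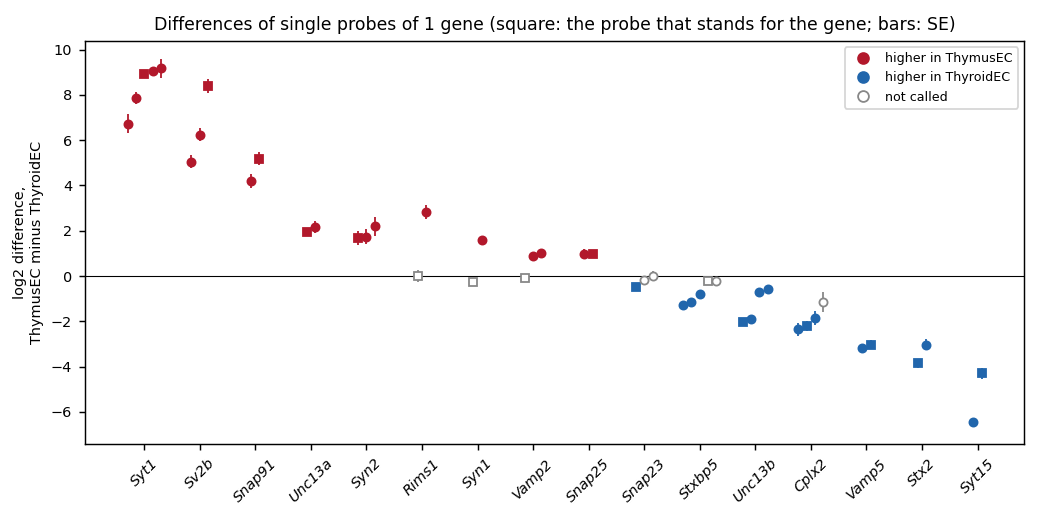
The log2 difference (ThymusEC minus ThyroidEC, vertical axis) of each tested probe of 16 genes, with bars for the SE (3 arrays per group). Squares mark the probe that stands for the gene, and open symbols were not called. The probes of Syt1, Sv2b and Snap91 all lie above 0 and those of Vamp5, Stx2 and Syt15 all below, while Rims1, Syn1 and Vamp2 each join an uncalled square with called circles above 0.

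Genes outside the families that work with them were counted on 2 lists. Of 32 tested genes of synaptic vesicles and active zones, 21 were higher in ThymusEC and 5 in ThyroidEC, against 39.3% and 30.5% of all genes, with a median difference of 1.38 beside the 0.10 of all genes. Cadps, which primes dense-core vesicles, had levels of 3.36, 3.29 and 3.47 in ThymusEC, against -5.45, -5.20 and -5.78 in ThyroidEC (462-fold, 2 ThyroidEC arrays above background). The vesicular GABA transporter Slc32a1 (at least 19.1-fold), the vesicle membrane protein Synpr (at least 10.46-fold) and the active zone scaffold Pclo (10.8-fold) were also higher in ThymusEC. On the ThyroidEC side were Syngr1 (4.40-fold), Erc1 (1.90-fold), Synj1 (1.67-fold) and Dnajc5 (1.52-fold). Syp, synaptophysin of the vesicle membrane, had levels of -2.26, -2.33 and -2.10 in ThymusEC, against -2.46, -2.02 and -2.87 in ThyroidEC, with overlap (adjusted p = 0.394).

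The second list holds the SNARE core and its general helpers: disassembly factors, other SNAREs, the exocyst tether, and Rab27 with its effectors. Of 39 tested genes, 5 were higher in ThymusEC and 20 in ThyroidEC, against 39.3% and 30.5% of all genes, or 29.5% and 37.5% of genes above background on all 6 arrays. The list's median was -0.32. Sytl3 (at least 15.4-fold), Sytl2 (7.59-fold), Sytl1 (2.43-fold) and Rab27a (1.93-fold), the Rab of secretory granules and 3 of its effectors, were the largest toward ThymusEC. Sytl5 (3.84-fold), Exoc6 (3.28-fold), Sytl4 (3.01-fold) and Bet1 (2.47-fold) led toward ThyroidEC, so that Rab27 effectors stood on both sides. With median centring, 38 genes of the joined lists were higher in ThyroidEC in place of 25.

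**Figure D5:**
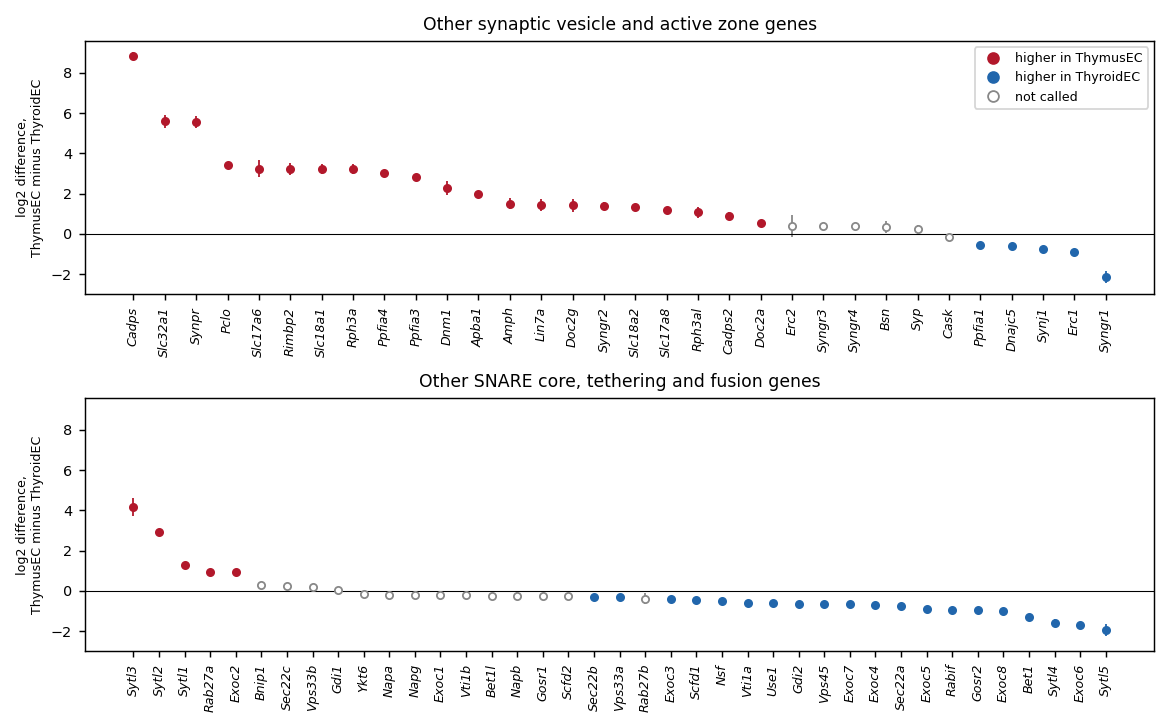
The log2 difference (ThymusEC minus ThyroidEC, vertical axis) of the tested genes of the list of synaptic vesicle and active zone genes (top, 32 genes) and of the list of SNARE core, tethering and fusion genes (bottom, 39 genes), sorted by difference, with bars for the SE. Most points of the top panel lie above 0, led by Cadps at 8.85, and most points of the bottom panel lie within 2 of 0, with 20 called below it.

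Markers of cell types that use this machinery also differed between the groups. The counts on all marker lists, here and in the next paragraph, stand beside 39.3% of all genes tested called toward ThymusEC and 30.5% toward ThyroidEC. Sums are over the linear signal of the list's genes in units of each array's 75th percentile. Of 13 tested neuronal markers, 10 were higher in ThymusEC and 1 in ThyroidEC, and their sum was 5.13 to 6.41 in ThymusEC, against 1.84 to 2.34 in ThyroidEC. Gap43 was above background on no array, and Nefm on no ThyroidEC array. Neuroendocrine and C-cell markers divided, with 6 of 13 higher in ThymusEC and 7 in ThyroidEC, and their sum was 101 to 131 in ThymusEC, against 531 to 941 in ThyroidEC. Calca, the calcitonin gene, was 16.5-fold higher in ThyroidEC, and Neurod1, a transcription factor gene, was above background on no ThyroidEC array. Parathyroid markers were higher in ThyroidEC in 2 of 3 genes, with sums of 12.7 to 47.8 in ThymusEC, against 88.5 to 405 in ThyroidEC. Chga had levels of 4.23, 4.83 and 5.49 in ThymusEC, against 6.39, 8.51 and 6.44 in ThyroidEC. Pth, the parathyroid hormone gene, had levels of 3.65, 4.71 and 5.57 in ThymusEC, against 6.47, 8.66 and 6.55 in ThyroidEC. ThyroidEC replicate 2 was the highest array for both genes.

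Tuft cell markers were higher in ThymusEC in 8 of 9 genes, with sums of 33.2 to 37.8 in ThymusEC, against 0.555 to 0.723 in ThyroidEC, where Pou2f3 and Il25 were above background on no array. Blood cell markers were higher in ThymusEC in 14 of 14 (107 to 118, against 3.46 to 4.05 in ThyroidEC, with Cd3g, Ms4a1 and Itgam above background on no ThyroidEC array). Most of the ThymusEC sum came from Lyz2 alone, at levels of 6.74, 6.60 and 6.71. The next highest blood cell marker in ThymusEC, Cd79b, had levels of 1.92, 2.02 and 2.22. Mast cell and platelet markers were higher in ThymusEC in 6 of 9 (6.05 to 7.30, against 1.61 to 1.92 in ThyroidEC, with Mcpt4 above background on no ThyroidEC array). Of the genes tied above to blood or immune cells, mast cells or platelets, Unc13d and Stx11 were higher in ThymusEC, and Vamp8 and Stxbp2 were not called. Endothelial markers were higher in ThyroidEC in 10 of 10 genes (4.41 to 4.87 in ThymusEC, against 531 to 790 in ThyroidEC), as was Vamp5. Follicular cell markers were higher in ThyroidEC in 9 of 10 (0.710 to 0.807 in ThymusEC, against 597 to 781 in ThyroidEC), and Tshr and Pax8 were above background on no ThymusEC array. The part of any of these cell types in the members' differences was not tested.

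ThymusEC replicates 1 to 3 and ThyroidEC replicate 1 were read on slide 1 and ThyroidEC replicates 2 and 3 on slide 2. On slide 1 alone, 37 members were higher in ThymusEC and 22 in ThyroidEC, beside 8467 and 6031 of all genes. With the slide as a block the members counted 34 and 22, beside 7740 and 5535 of all genes. Within slide 1, Syt1 differed by 8.99, Sv2b by 8.61, Stx2 by -4.23, Vamp5 by -3.35, Cplx1 by 3.30 and Cplx2 by -1.90. Syt10 (5.49), Syt12 (2.48) and Stx19 (4.41) were larger there by more than 1.5-fold. Normexp background correction, which lifts dim signals, made 27 of the 60 called members differ in fold by more than 1.5 times and ended 7 calls. Under it Syt1 was 160-fold and Sv2b 13.1-fold higher in ThymusEC, and Stx2 10.9-fold higher in ThyroidEC. Cplx1 (2.61-fold), Stx19 (2.46-fold) and Rims2 (2.02-fold) stayed higher in ThymusEC under normexp, by smaller folds than in the main setting. So did Snap91 (12.9-fold), Syt10 (5.05-fold) and Unc13d (4.89-fold). Folds also fell under the bounds given above, among them those of Sv2b, Sv2a (1.59-fold), Syt8 (4.77-fold) and Stxbp5l (1.91-fold). Quantile normalization moved 21 folds by more than 1.5 times, among them Cplx1 (6.74-fold), Rims2 (3.31-fold) and Stx19 (6.16-fold), and the median over probes moved 9, among them Cplx2 (2.81-fold), Unc13b (2.37-fold) and Stxbp3 (3.51-fold). Of the 60 called members, 45 were called in the same direction under each of the 17 other settings that gave them a value, 26 toward ThymusEC and 19 toward ThyroidEC. The filter on all arrays leaves out the dim members and gives no value for them.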

How the data were processed

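Per the labels' protocols, Trizol was used for extraction and Cy3 for labelling. The authors' deposited scanner files hold each spot's intensity, read with Agilent Feature Extraction 10.5.1.1 and with probe positions on mm8, as their headers state. The deposited value table is a linear ratio, equal to the processed signal over each array's median (median 1 in every column). Arrays have no read depth, and their number limits the precision.

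Control spots were removed, as were between 67 and 151 outlier spots on each array, and no spot was saturated. The deposited processed signal was scaled by the array's 75th percentile, taken to log2 and tested in limma 3.58.1 (R 4.3.3, lmFit and eBayes, no covariate). Above background means the software's flag, set at a multiple of 13 background SDs. Probes were named through RefSeq (GRCm38.p6) by accession (24375), symbol (6301) or older symbol (2426), and 8072 kept the file's name. The script was tested on simulated data.

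The members, the lists and the rule for named genes were chosen with earlier results of these data known. Array values are given for the largest called difference of each family and direction and for a set of principal members, and the lists give up to 4 genes per direction. The alternatives concerned the background (normexp with an offset of 50), the scaling (quantile normalization, median centring, the value table), the filter (none, or all 6 arrays), the choice of probe (median over probes), the slide (a block, or slide 1 only), the replicate number as a block, the variances (trended and robust) and each array in turn left out. The same replicate number in both groups does not pair samples: deviations correlated at 0.007, -0.067 and -0.055. The labels call the replicates independent. Some genes that the rule takes are counted but not reported here by name.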

Additional observations from a re-analysis of the deposited data

How the results depend on the processing

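Over the 17 other settings, 26 of the 37 named members kept their direction and their side of the threshold under every setting that gave them a value. Leaving out 1 array at a time gave 33 to 38 members higher in ThymusEC and 21 to 26 higher in ThyroidEC. Over all genes it gave 7653 to 8398 and 5599 to 6390, and over the other vesicle genes 25 to 27 and 22 to 24. The filter on all arrays, which tests fewer genes, left 22 members and 5032 genes higher in ThymusEC, in place of 35 and 8410. Median centring and the value table gave 11043 and 10968 genes higher in ThyroidEC, in place of 6517, and 38 other vesicle genes each. With the replicate block, 35 members were higher in ThymusEC and 24 in ThyroidEC, beside 8061 and 5998 of all genes, and samples of the same number did not deviate together.

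Named members that were not called changed sign in places, and the cause was not tested. With quantile normalization Syn1 stood at 0.10, Stx4a at 0.044, Vamp2 at 0.079 and Rims1 at -0.37. With median centring and the value table, Stx3 stood at -0.26 and -0.25, Vamp8 at -0.45 and -0.44, Stxbp2 at -0.27 and -0.26, and Rims1 at -0.52 and -0.51. With the median over probes, Stx3 stood at -0.34, Syn1 at 0.68 and Vamp2 at 0.90. Without 1 array, Rims1 ranged between -0.13 and 0.30. Slide and group are partly confounded, since slide 1 holds a single ThyroidEC array, which is assumed to vary like the others. Dim members depend on how background is handled, and 3 arrays a group limit every error given.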
